A study of Drosophila melanogaster with 2 samples.

Results

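The Hippo pathway restrains organ growth, and 10 of its genes were examined for peaks of the homeodomain factor Invected in Drosophila melanogaster embryos. The genes were taken as a named list, *hpo*, *wts*, *sav*, *mats*, *yki*, *sd*, *ft*, *ds*, *ex* and *Mer*, out of 13945 protein-coding genes. They were chosen by pathway and name, but with earlier results of these data known. All 10 were found in the annotation. Chromatin immunoprecipitation with sequencing was done on whole embryos of the inv-GFP strain, aged 0 to 24 h, which carry a transgene for an Invected-eGFP fusion, with an antibody against GFP. There was 1 group of 2 biological replicates, without a second genotype, stage or treatment, and control libraries were not analysed here. The labels do not say what drives the fusion, and peaks of whole embryos cannot be assigned to a tissue.

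In this pathway the kinase Hippo, with its scaffold Salvador, activates the kinase Warts, which works with its partner Mats. Warts phosphorylates the coactivator Yorkie and keeps it out of the nucleus. Nuclear Yorkie binds the TEAD-class factor Scalloped and switches on growth and survival genes. The cadherins Fat and Dachsous and the FERM-domain proteins Expanded and Merlin act upstream of the kinases.

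Each peak has a summit, the position of its highest signal, and a signal value, which is the authors' own value on a scale that is not stated. Peaks were scored by the irreproducible discovery rate (IDR), which falls as repeated measurements rank a peak more alike. The lowest score in each thresholded list was 830, an IDR of 0.01, and the highest possible score was 1000. In a list of 1 replicate alone, the score is not a measure of agreement between the 2 replicates. A high pooled score also did not always go with high scores in both. A *wts* summit scored 1000 in the larger pooled list, and 25 and 20 in the ranked lists of the replicates. The larger pooled thresholded list held 3406 peaks, the conservative pooled list 2554, the list of replicate 1 alone 2859 and the list of replicate 2 alone 2156. Library depth is unknown, so signal values were ranked only within a list. The lists carry no interval or standard error for a peak, and the spread between replicates is shown by giving both.

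In the larger pooled list, *wts*, *sav*, *yki* and *sd* held a summit inside the gene or at most 2 kb from either end, and *hpo*, *mats*, *ft*, *ds*, *ex* and *Mer* did not. The count of 4 of 10 lay near the background of 37.7% of all protein-coding genes. The 4 genes had 6 summits in all, with signals from 73.8 to 460.0. Only *wts* had a summit whose nearest transcription start site (TSS) was its own. The strongest summits at *sav*, *yki* and *sd* lay nearer to the TSS of a neighbour, *Ublcp1*, *Gpat4* and *PGRP-LE*.

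The sequences under the summits of *wts*, *sav* and *sd* are shown, and 4 of these 5 carried TATCGA. Over all 6 summits of the 10 genes it was 4 of 6, beside 39.0% of all summits of the larger pooled list. The *yki* summit, which lacked it, is not shown, and the intronic summit of *wts* lacked it as well. TATCGA is part of the DRE, an element common at fly promoters, and is not the whole of it. The sequences are from the Release 6 genome, 5′ to 3′ on the strand of the Hippo gene, with TATCGA on either strand in capitals. The windows of *wts* and *sav* reach 50 bp to each side of the summit, and 30 bases are given for *sd*. The windows are *wts* at its TSS, chr3R:30806613-30806713 on the minus strand, *wts* beyond its 3′ end, chr3R:30789356-30789456 on the minus strand, *wts* in its intron, chr3R:30797421-30797521 on the minus strand, *sav*, chr3R:23061415-23061515 on the minus strand, and *sd*, chrX:15802995-15803024 on the plus strand.
wts, start site: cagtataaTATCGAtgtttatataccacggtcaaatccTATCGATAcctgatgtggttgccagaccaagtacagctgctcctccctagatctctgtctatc
wts, beyond the 3′ end: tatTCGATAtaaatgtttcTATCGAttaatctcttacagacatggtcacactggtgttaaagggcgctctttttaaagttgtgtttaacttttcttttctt
wts, intron: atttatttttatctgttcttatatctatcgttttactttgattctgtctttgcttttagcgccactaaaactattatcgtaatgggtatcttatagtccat
sav: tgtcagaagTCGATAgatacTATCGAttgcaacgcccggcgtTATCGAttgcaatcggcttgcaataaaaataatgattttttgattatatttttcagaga
sd: agaTATCGATAagtatTATCGAtgttcgca

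The 4 upstream genes had no summit, so they are shown around their TSS, from 80 bases before it to 20 after, with no TATCGA in any of them. These windows do not separate the genes by summit, since those of *sav* and *sd* cut in the same way also lacked TATCGA, as did that of *mats*, while that of *wts* held it. The windows are *ft*, chr2L:4221776-4221876 on the minus strand, *ds*, chr2L:714963-715063 on the minus strand, *ex*, chr2L:431147-431247 on the plus strand, and *Mer*, chrX:19693480-19693580 on the minus strand.
ft: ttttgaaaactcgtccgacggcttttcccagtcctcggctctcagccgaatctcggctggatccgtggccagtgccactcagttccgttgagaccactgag
ds: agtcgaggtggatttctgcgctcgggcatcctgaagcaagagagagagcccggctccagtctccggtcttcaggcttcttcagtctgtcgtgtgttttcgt
ex: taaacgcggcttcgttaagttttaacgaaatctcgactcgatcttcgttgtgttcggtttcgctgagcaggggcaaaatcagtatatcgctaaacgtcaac
Mer: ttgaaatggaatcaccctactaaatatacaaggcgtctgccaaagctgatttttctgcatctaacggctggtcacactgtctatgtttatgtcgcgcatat

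The kinase gene *wts* (FBgn0011739, 3R 30789625 to 30806619, minus strand) had the strongest peak of the 10 genes and the most summits. Its main peak, at 3R 30806534 to 30806831, had a signal of 460.0 and ranked 401 of 3406, with the summit 44 bp upstream of the single annotated TSS of *wts*. In the list of replicate 1 this peak had a signal of 340 and ranked 357 of 2859, and in that of replicate 2 it had a signal of 121 and ranked 610 of 2156. The summits of the replicates lay 30 bp and 12 bp from the pooled one, so both lists placed it at the *wts* promoter. The TSS of *dj-1beta*, an oxidative stress protein gene, lay 498 bp from that of *wts* on the opposite strand.

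The other summits of *wts* were weaker and were found in fewer lists. One lay just beyond the 3′ end of the gene, 17213 bp from its TSS, with a signal of 102 and a rank of 2106. It had a signal of 72.4 in the list of replicate 1 and was absent from the thresholded list of replicate 2, whose ranked list gave it 30.4 at a score of 22. Its nearest TSS, that of the transcription factor gene *zfh1*, was 6148 bp away. The other lay in an intron 9148 bp into the gene, with a pooled signal of 73.8 and a rank of 2805. It overlapped no thresholded peak of either replicate and was not in the conservative list. The ranked lists gave it 24.4 at a score of 25 in replicate 1 and 52.8 at a score of 20 in replicate 2. Its score in the larger pooled list was 1000.

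The scaffold gene *sav* (FBgn0053193, 3R 23058609 to 23061304, minus strand) had 1 peak, at 3R 23061346 to 23061583, which all 4 thresholded lists held. Its pooled signal was 375 and its rank 556. The signal was 202 in replicate 1, at rank 757 of 2859, and 157 in replicate 2, at rank 370 of 2156. The pooled summit lay 161 bp upstream of the TSS of *sav* and 28 bp from that of *Ublcp1*, a phosphatase gene on the opposite strand. These TSS were 189 bp apart, and the pooled peak began between them, short of the TSS of *sav*. The wider peak of replicate 2, at 3R 23061243 to 23061618, covered both. Its width of 376 bp recurred among the peaks of that replicate, as at *wts* and *sd*, so the cover is not read as broader binding.

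The kinase gene *hpo* (FBgn0261456, 2R 19493996 to 19496856, minus strand) was called in the conservative list only. The peak lay at 2R 19496633 to 19497056, with its summit in the 5′ UTR 11 bp from the TSS, a signal of 77.7 and a rank of 2281 of 2554. The same interval had a score of 889 in the conservative list and 136 in the ranked list behind the larger one. The ranked list of replicate 1 gave it 54.4 at a score of 233, and that of replicate 2 gave it 32.1 at a score of 21. Of the 2549 conservative peaks on the chromosome arms, 204 were likewise missing from the larger list. Why these scores differ was not tested.

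The Warts partner gene *mats* (FBgn0038965, 3R 22421161 to 22423302, plus strand) was called in replicate 1 alone. Its summits there lay 16 bp upstream of its first TSS, with a signal of 30.9 at rank 2722 of 2859, and 75 bp downstream of its second, with 10.9 at rank 2772. Both ranked among the weakest of that list. The ranked list of replicate 2 gave 17.4 to the peak overlapping the first, at a score of 42, and no peak overlapping the second. The nucleolar protein gene *Nop56* starts 93 bp from *mats* on the opposite strand.

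The effector genes *yki* and *sd* each had 1 summit in the larger pooled list, and neither lay nearest the gene's own TSS. At *yki* (FBgn0034970, 2R 24065975 to 24068485, minus strand) the peak lay at 2R 24068957 to 24069144, with a signal of 262 and a rank of 886. Its summit was 564 bp upstream of the TSS of *yki* and 1 bp from a TSS of *Gpat4*, a glycerolipid synthesis gene on the opposite strand. It had a signal of 207 in replicate 1 at rank 738 of 2859. In replicate 2 its signal was 54.8 at a score of 825, just under the lowest listed score of 830, so the thresholded list of that replicate did not hold it. Replicate 1 also listed a peak with its summit 5 bp from the TSS of *yki* itself, with a signal of 63.4, and replicate 2 had no ranked peak overlapping it.

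The TEAD-class factor gene *sd* (FBgn0003345, X 15804370 to 15827682, plus strand) has 7 annotated TSS. Its peak, at X 15802959 to 15803122, had a pooled signal of 238 and a rank of 1007. The signal was 167 in replicate 1, at rank 942 of 2859, and 68.1 in replicate 2, at rank 1324 of 2156. All 4 thresholded lists placed it at a TSS of *PGRP-LE*, a peptidoglycan receptor gene on the opposite strand. The pooled summit lay 46 bp from that TSS and 1355 bp upstream of the first TSS of *sd*. With a margin of 1 kb around the gene in place of 2 kb it would not be counted for *sd*. At an internal TSS of *sd*, replicate 1 listed a summit 24 bp away with a signal of 56.0, while the overlapping ranked peak of replicate 2 had 16.6 at a score of 23.

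**Figure D1:**
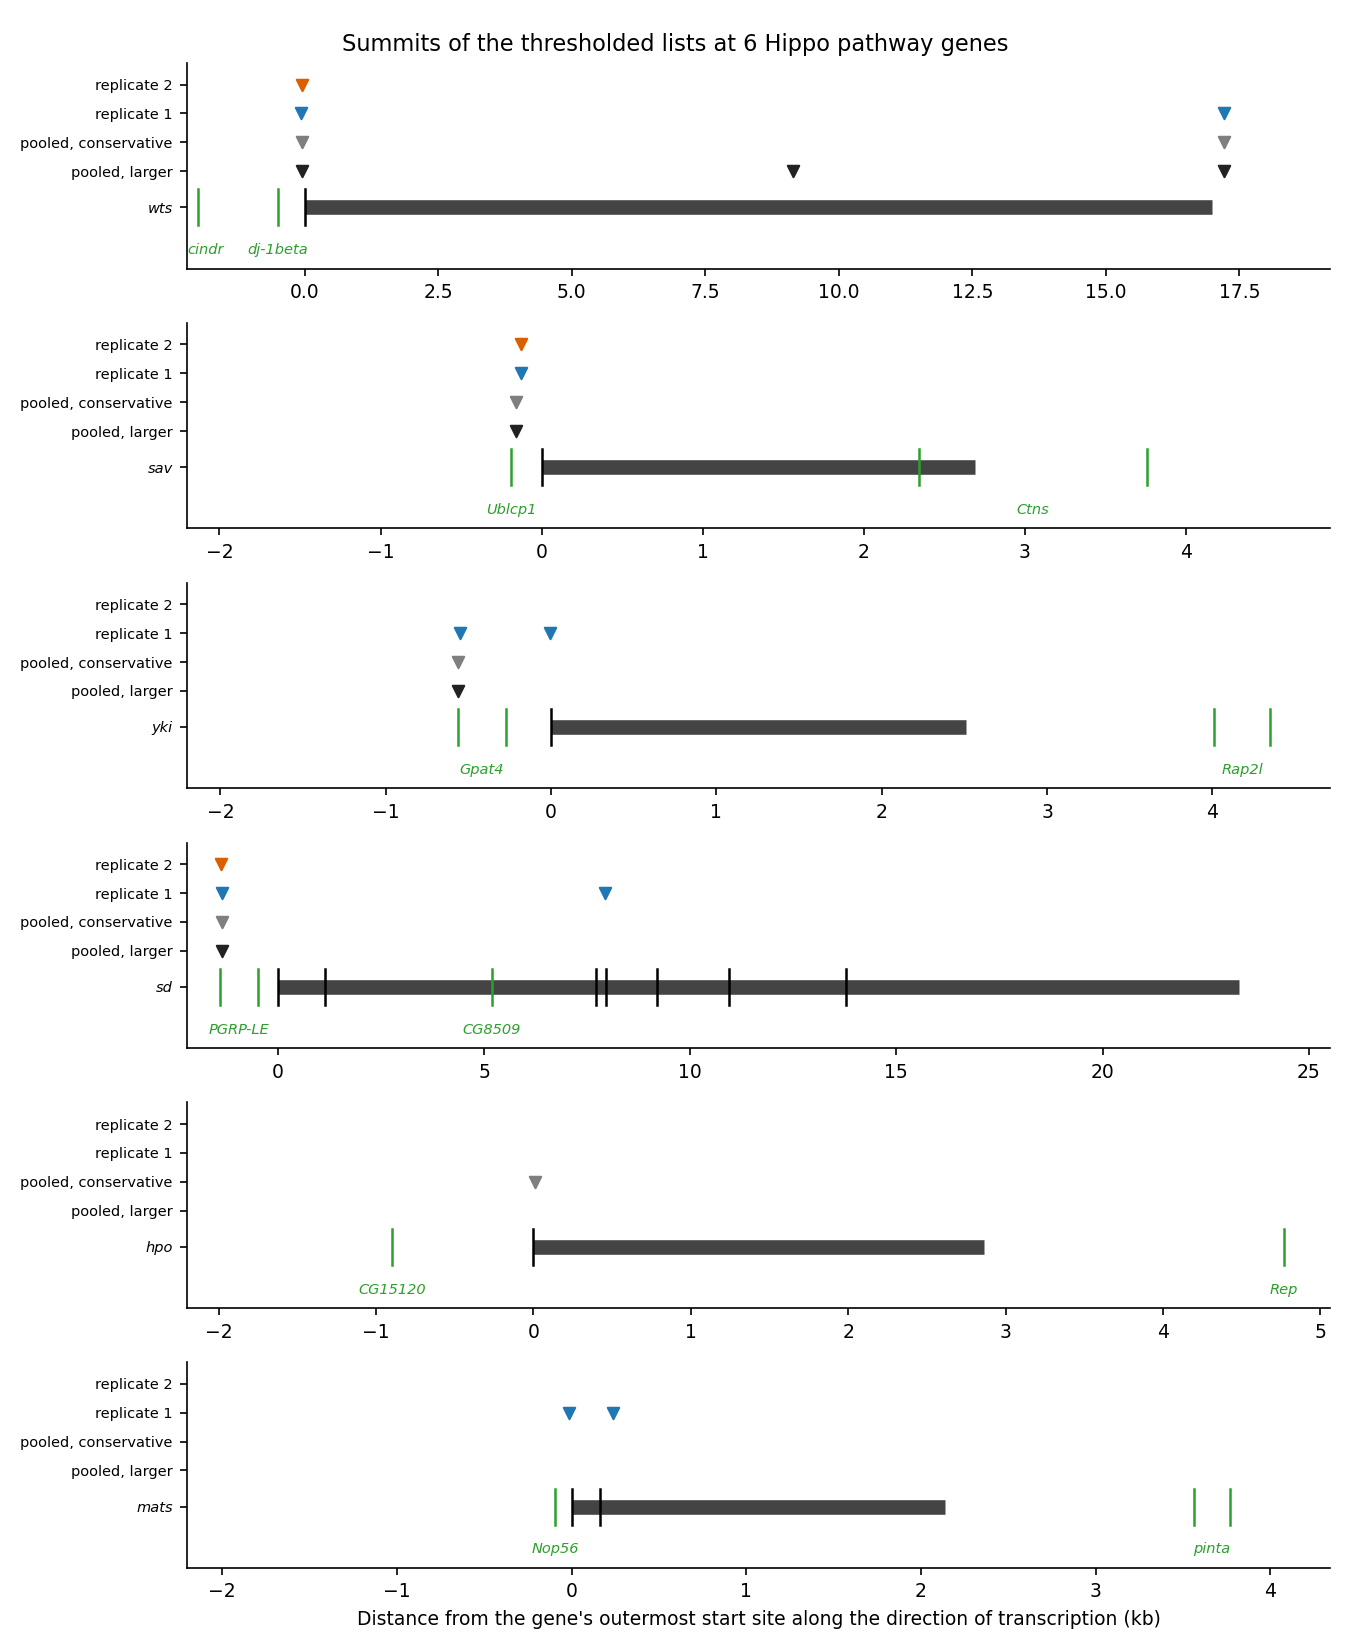
Summits of the 4 thresholded lists (triangles, 1 row per list) at *wts*, *sav*, *yki*, *sd*, *hpo* and *mats*, against distance in kb from the outermost TSS of each gene along its direction of transcription. Grey bars are gene bodies, black ticks are TSS of the gene and green ticks are TSS of other protein-coding genes; at *wts*, *sav* and *sd* all 4 lists share a summit at or upstream of the gene's TSS.

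The upstream genes had no summit in any of the 4 thresholded lists. In the ranked list behind the larger pooled one, the best score at *ft* (FBgn0001075, 2L 4198404 to 4221796) was 311, an IDR of 0.178, for an intronic peak with a signal of 38.8. At *ds* (FBgn0284247, 2L 640013 to 714983), the longest of the 10 genes at 74971 bp, the best score was 114, an IDR of 0.530, for an intronic peak with a signal of 29.7. At *ex* (FBgn0004583, 2L 431227 to 448701) it was 462, an IDR of 0.0769, for a peak beyond the 3′ end with a signal of 45.3 and nearest the TSS of the scavenger receptor gene *crq*. At *Mer* (FBgn0086384, X 19689697 to 19693500) it was 305, an IDR of 0.184, for an intronic peak 110 bp from the TSS with a signal of 17.9. Of these 4 only *ex* had a peak under an IDR of 0.1 in that list. In the ranked list behind the conservative one it was *ft* instead, with a score of 594, an IDR of 0.0370, for a peak in its coding sequence at 2L 4202169 to 4202592 with a signal of 55.1.

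Ranked lists hold weak peaks at nearly every gene, with 95.4% of all protein-coding genes having one in replicate 1 and 96.4% in replicate 2, as did all 10 of these. The signal of the strongest ranked peak at most 1 kb from an own TSS was therefore set against all genes. For *wts* it was 340 in replicate 1 and 121 in replicate 2, above those of 95.7% and 93.0% of genes. For *sav* it was 202 and 157, above 91.1% and 95.6%, and for *yki* it was 207 and 54.8, above 91.4% and 83.0%. These 3 genes lay above the upper quartile of all genes, 53.2 in replicate 1 and 34.6 in replicate 2, in both replicates. The *yki* values came from the peak at *Gpat4*, with summits 553 bp and 572 bp from the TSS of *yki*. Those of *sav* came from a peak 127 bp from its TSS and 62 bp from that of *Ublcp1*.

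The remaining genes lay lower. For *hpo* the values were 54.4 and 32.1, above 75.3% and 72.8% of genes, and for *sd* 56.0 and 26.6, above 75.8% and 64.8%. Both passed the upper quartile in replicate 1 only. With 7 annotated TSS, *sd* had more places for such a peak than *hpo* with 1, and genes were not matched for this. For *mats* they were 30.9 and 17.4, above 58.2% and 38.4% of genes. The 4 upstream genes ranged from 11.0 at *ft* to 25.2 at *ex* in replicate 1, all below the median of 26.3 for all genes. In replicate 2 they ranged from 14.9 at *Mer* to 23.0 at *ft*, with *ft* and *ds* above the median of 20.8. Differences among the 4 upstream genes were not ordered alike by the replicates, since *ft* was the lowest of them in one and the highest in the other.

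**Figure D2:**
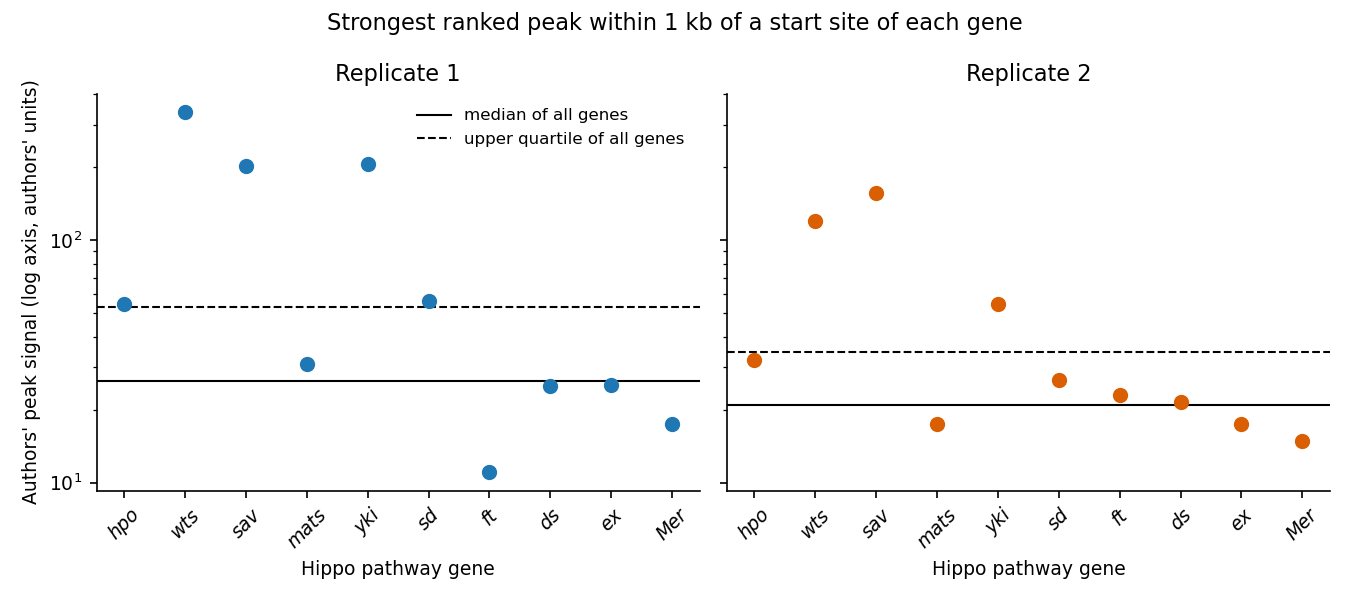
Signal of the strongest ranked peak within 1 kb of any TSS of each of the 10 genes (points, authors' units, log axis) in replicate 1 (left) and replicate 2 (right). Solid and dashed lines are the median and upper quartile of the same value over 13945 protein-coding genes. In both replicates *wts*, *sav* and *yki* are above the upper quartile, with the peaks of *sav* and *yki* nearest the TSS of a neighbour.

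In the larger pooled list, genes with and without a summit stood side by side in the middle and the longest of 5 classes of gene length. The 10 genes had a median length of 10.4 kb against 2.17 kb for all protein-coding genes, and the share of all genes with a summit rose over 5 equal classes of length from 20.7% in the shortest to 48.5% in the longest. In the longest class, *wts* and *sd* had a summit and *ft*, *ds* and *ex* did not. In the middle class, at a share of 39.7% over all genes, the short genes *sav* and *yki* had one and *mats* did not. In the next longer class, at 47.2%, neither *hpo* nor *Mer* did.

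**Figure D3:**
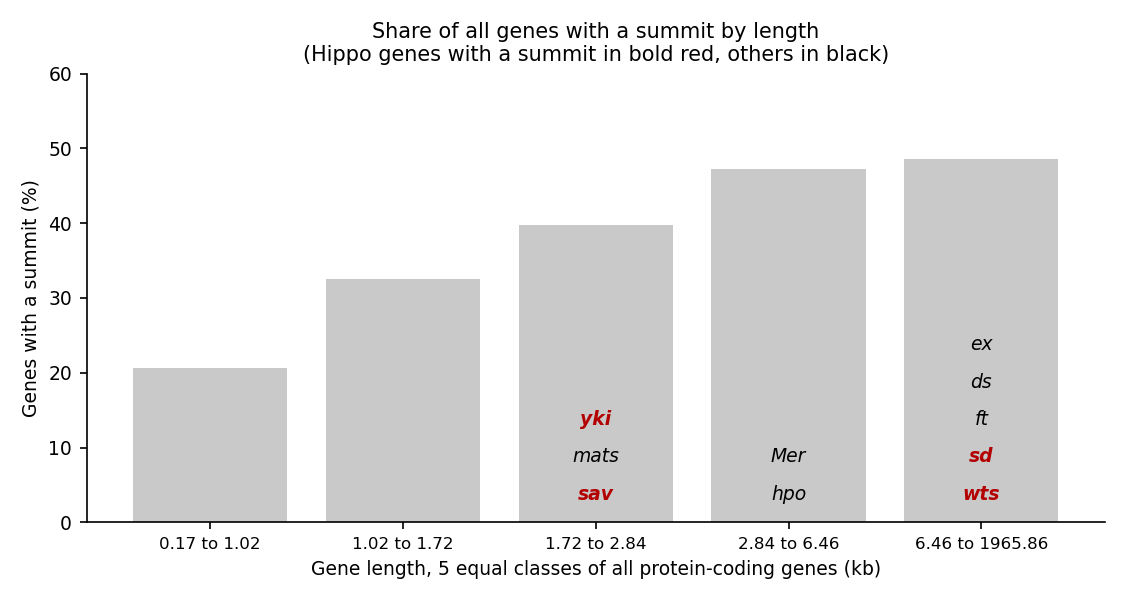
Bars give the percentage of all protein-coding genes with a summit of the larger pooled list by the same rule, for 5 equal classes of gene length in kb. The 10 genes are written on the bar of their own length class, those with a summit in bold red (*sav*, *yki*, *wts* and *sd*) and the others in black.

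The arrangement of neighbours was looked at after the summits had been seen. A TSS of another gene on the opposite strand lay upstream within 1 kb of a TSS of *hpo*, *wts*, *sav*, *mats*, *yki* and *sd*, at distances from 93 bp at *mats* to 896 bp at *hpo*, and of none of *ft*, *ds*, *ex* and *Mer*. In the larger pooled list 4 of these 6 genes and 0 of the other 4 had a summit, beside 58.2% of the 5052 protein-coding genes with such a divergent neighbour and 26.1% of the 8893 without, so the counts lay near the background. In the union of the 4 thresholded lists, a choice made after the lists were seen, it was 6 of 6 and 0 of 4, beside 61.8% and 29.2%. The union gave a summit to 41% of all protein-coding genes. The share with a neighbour includes summits that lie at the neighbour's TSS, as at *sd* and *yki*. With 10 genes chosen by name, no test was made of this split.

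The sequence under the 6 summits was described with 8 short words, each searched on both strands within 50 bp of a summit. TATCGA lay at 4 of the 6, the *wts* summits at its TSS and beyond its 3′ end and those of *sav* and *sd*, beside 39.0% of all 3393 summits of the larger pooled list on the arms. Counting overlapping matches once, the *wts* summits had 2 sites each, and *sav* and *sd* had 3 each, 2 of the 3 at *sd* being in the 30 bases shown, a count made after the sequences were seen. Of all summits, 14.0% had at least 2 sites and 2.42% had at least 3. The *yki* summit and the intronic *wts* summit had none.

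The homeodomain core words did not lie whole within 50 bp of any of the 6 summits, but did so within 100 bp of some. Within 50 bp TAATTA lay at 0 of 6, beside 4.98% of all summits, and TAATTG at 0 of 6, beside 7.13%. Within 100 bp TAATTA lay at 1 of 6, at *sd*, where its nearest base was 47 bp from the summit, beside 12.1% of all summits. TAATTG lay at 2 of 6, beyond the 3′ end of *wts* and at *sav*, beside 16.1%. The TEAD core GGAATG lay at 0 of 6 beside 3.33%, GAGAGA at 0 of 6 beside 3.21%, and CACGTG at 0 of 6 beside 1.41%. The E-box word CAGCTG lay at 1, the *wts* start site, beside 7.40%, and GGTCACAC at 1, beyond the 3′ end of *wts*, beside 3.80%. With 6 summits, a word at these background shares is often absent, so its absence says only that these letters are not in these windows.

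In promoters, taken from 250 bp before to 50 bp after the outermost TSS, TATCGA was found at *hpo*, *wts* and *sav* and in 27.7% of all promoters. TAATTA was found at *mats* and *yki* and in 20.5% of all promoters, and TAATTG at *sav* and *yki* and in 25.3%. GGAATG was found at *sav*, *yki* and *sd* and in 11.0%. GAGAGA was found at *sd*, *ft*, *ds* and *ex* and in 12.3%. CAGCTG was found at *wts*, *sav* and *sd* and in 17.7%, GGTCACAC at *mats* and *Mer* and in 7.71%, and CACGTG at *mats* and in 4.24%. Differences in these words among the 10 genes were not tested.

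A wider list of 29 genes of the pathway, written with earlier results of these data known, was counted by the same rule to place the 10. Of these, 19 had a summit in the larger pooled list, beside 37.7% of all genes. Their median length was 11990 bp, and 23 of the 29 fell in the longest of the 5 length classes, where 48.5% of all genes had one. Upstream regulators had a summit in 12 of 18 cases, nuclear partners in 4 of 6 and targets in 3 of 5. Counted within 1 kb of an own TSS, 14 of 29 had one, beside 27.2% of all genes, while 3 of the 10 did. By the nearest TSS it was 13 of 29 and 1 of 10, beside 21.2% of all genes. TATCGA lay within 50 bp of 12 of the 31 summits of the wider list, beside 39.0% of all summits. TAATTA and TAATTG lay at 4 of the 31 each, beside 4.98% and 7.13%.

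Among the regulators, *Tao*, whose kinase phosphorylates Hippo, had a summit 199 bp upstream of its TSS with a pooled signal of 433 and signals of 306 and 126 in the replicates. *Sik3*, a salt-inducible kinase gene, had one 198 bp downstream of a TSS at 432, with 214 and 226, and *Pez*, a phosphatase gene, had one 33 bp upstream of a TSS at 222, with 143 and 81.1. These 3 were in the thresholded lists of both replicates. Weaker own-start summits lay at *crb*, an apical polarity gene, at 106, *Patj* at 97.3, the atypical myosin gene *dachs* at 86.1, the casein kinase gene *dco* at 82.7, the Hippo antagonist gene *Rassf* at 73.1 and *app* at 68.0. Of these, *crb*, *Patj*, *dachs* and *app* overlapped a thresholded peak of replicate 1 only, and *dco* and *Rassf* of neither. At *Fbxl7*, *Cka* and *kibra* a summit was counted but lay more than 1 kb from an own TSS. At *kibra*, an activator of the pathway, the ranked lists also hold a far stronger peak at its TSS that no thresholded list holds.

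Among the nuclear partners, *mask*, which encodes a cofactor of Yorkie, had the strongest thresholded peak of the wider list at 543, with 366 and 188 in the replicates. Its summit was 509 bp from its TSS and 18 bp from that of *Spase22-23*. *Tgi*, whose product competes with Yorkie for Scalloped, had summits of 226 both at its own TSS and 502 bp upstream, the latter nearest *Abp1*. *Wbp2* had one at 133, 62 bp from its TSS and 14 bp from that of *CG10948*, in the thresholded list of replicate 1 only. The ranked list of replicate 2 gave it 55.3 at a score of 823, just under 830. The summit of *hth* lay in an intron at 79.7. Of the growth and survival targets, the apoptosis inhibitor gene *Diap1* had a summit 53 bp upstream of its TSS at 381, with 244 and 139 in the replicates. The cell cycle factor gene *E2f1* had one 180 bp upstream at 216, with 156 and 56.4. The only summit counted for *vn*, at 114.9, lay 8 bp from the TSS of *mad2*. The genes *jub*, *Zyx*, *fj*, *l(2)gl*, *Slmap*, *Strip*, *Hipk*, *tsh*, *CycE* and *Myc* had none in the larger list.

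The wider list was counted by the same arrangement of neighbours. Of its 11 genes with a divergent neighbour within 1 kb, 8 had a summit in the larger pooled list, and of the 18 without, 11 did, beside 58.2% and 26.1% of all genes. In the union it was 10 of 11 and 11 of 18, beside 61.8% and 29.2%. Within 1 kb of an own TSS it was 8 of 11 and 6 of 18, beside 48.8% and 15.0%. The difference between the wider list and the 10 genes was not tested.

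Of the 6 summits at the 10 genes, 3 overlapped a thresholded peak of both replicates, those at the *wts* TSS, *sav* and *sd*. Another 2, at *yki* and beyond the 3′ end of *wts*, overlapped one of replicate 1 only, and the intronic one of *wts* overlapped neither. Of the 31 summits of the wider list, 10 overlapped one of both replicates and 11 of replicate 1 only. A further 3 overlapped one of replicate 2 only, and 7 of neither. The same shares over all summits are not given here, so these counts have no background beside them. With the list of replicate 1 alone the genes with a summit were *wts*, *sav*, *mats*, *yki* and *sd*, beside 34.9% of all genes. With that of replicate 2 alone they were *wts*, *sav* and *sd*, beside 27% of all genes. With the conservative list they were *hpo*, *wts*, *sav*, *yki* and *sd*, beside 32.1% of all genes. In the upper 50% of pooled peaks by signal they were again *wts*, *sav*, *yki* and *sd*, beside 25.3% of all genes.

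The margin around the gene moved the count as well. With no margin only *wts* had a summit, through its intronic one, beside 9.54% of all genes. With 1 kb it was *wts*, *sav* and *yki*, beside 32.6%, and with 5 kb the same 4 genes as with 2 kb, beside 49.6%. Adding peaks of the ranked list behind the larger pooled one down to an IDR of 0.1 brought in *mats* and *ex*, for 6 of 10 beside 51.3% of all genes.

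**Figure D4:**
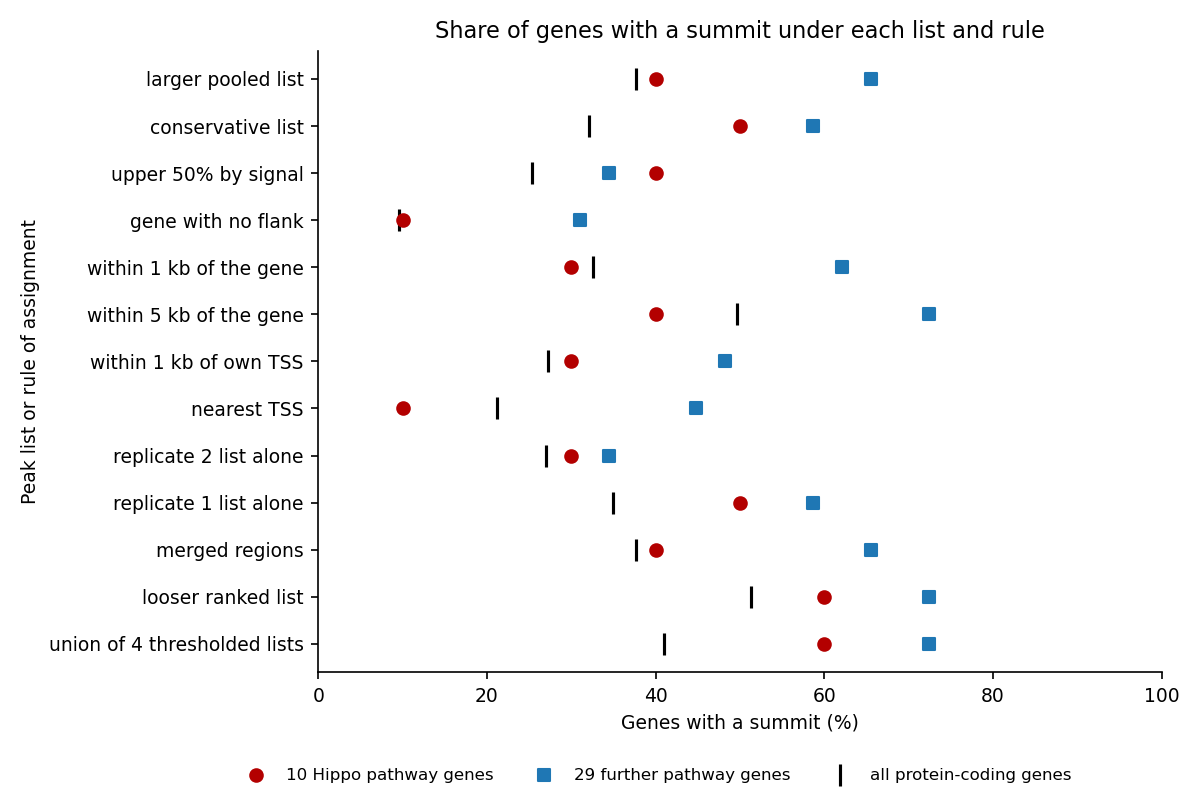
Percentage of genes with a summit for the 10 genes (red circles), the 29 further pathway genes (blue squares) and all protein-coding genes (black ticks) under each of 13 combinations of peak list and rule of assignment. The combinations share peaks and are not separate results; in the larger pooled list 4 of the 10 genes lie within 1 gene of the 37.7% of all genes, and the wider list, 19 of 29, lies above it.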

How the data were processed

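Chromatin was fragmented by sonication, per the labels. The deposited files are peak lists on dm6, IDR ranked or thresholded, for each replicate and for both pooled, per the labels. The authors' deposited signal is a value per peak on a scale that is not stated. The deposited score is the IDR rescaled to whole numbers up to 1000, and the ranked lists also give the IDR as its −log10 in a deposited column. The aligner and peak caller, with versions, were not given in the sources used here. Genes came from Ensembl release 115 and sequence from Release 6, within whose arms every peak ended. Peaks off the 6 arms were left out, and ranks are over the whole list. A gene held a summit when one lay in it or within 2 kb. Peaks were shared when they overlapped by 1 bp. The members and lists were chosen with earlier results of these data known, and *dachs* replaced its older symbol. All members, the gene at the nearest TSS, and the genes of the wider list with a summit were named. No test was made, as there is 1 group. The assignment was tested on simulated data. Python 3.11.15, numpy 2.4.6, pandas 2.3.3 and matplotlib 3.10.9 were used.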

Additional observations from a re-analysis of the deposited data

How the results depend on the processing

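No paired analysis was possible because the 2 replicates form 1 group and no result comes from a test. In the gene with no flank, 1 of the 10 genes had a summit, beside 9.54% of all genes and 9 of the wider list. By the nearest TSS it was 1 of the 10, beside 21.2% of all genes. In the upper 50% of peaks by signal the wider list had 10. Without each replicate in turn, the 10 genes had 3 to 5, all genes 27% to 34.9% and the wider list 10 to 17. Within 100 bp of the summit, in place of 50 bp, TAATTA lay at 1 of the 6, TAATTG at 2 and CACGTG at 1, each at 0 before. The other 31 of 39 alternative values of the main counts lay within 1.5 times the value reported, among them the overlap of 3 summits with both replicates when summits had to lie within 100 bp. The rank of a gene's strongest peak, as a percentage of its list, also moved. From the pooled list to that of replicate 2 it went from 11.8% to 28.3% at *wts* and from 29.6% to 61.4% at *sd*. At *sav* it went from 16.3% to 26.5% in replicate 1. It stayed closer at 17.2% for *sav* in replicate 2. In replicate 1 it was 12.5% for *wts*, 32.9% for *sd* and 25.8% for *yki*, which was at 26.0% in the pooled list. The union of the 4 thresholded lists was added after they had been seen. The causes of these changes were not tested. Without depth or controls, a gene with no listed summit is not shown to lack binding.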

Other observations

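The WW-domain gene *kibra* held one of the highest ranked peaks of the experiment, although the thresholded lists do not contain it. At 3R 14724185 to 14724607, with its summit 94 bp from the TSS of *kibra*, the pooled ranked list gave a signal of 1281 at the highest score of 1000, rank 25 of 139890. The ranked list of replicate 1 gave 933 at rank 25 of 111856, and that of replicate 2 gave 353 at rank 31 of 102889. Another such pooled peak, of 349.7, lay near the 3′ end of *kibra*. At *E2f1*, a ranked peak of 154 lay 181 bp from an internal TSS at a score of 1000 and is also not in a thresholded list. Of the 3499 pooled ranked peaks on the arms at or above the lowest thresholded score, 106 were not in the larger thresholded list, and 0 of them lay at the 10 genes. The step that set them apart was not given in the sources used here, so the thresholded count for *kibra* rests on its weaker intronic summit of 124 alone.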
